A study of Homo sapiens with 10 samples.

Results

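Eph receptors are receptor tyrosine kinases, and the 10 described here were the genes whose symbol was EPHA2, EPHA3, EPHA4, EPHA5, EPHA7, EPHB1, EPHB2, EPHB3, EPHB4 or EPHB6, out of 57955 genes measured in 10 melanoma libraries. All 10 had an entry in every library, though some stood at 0 counts in some libraries. Of the 10, 7 passed the filter on low counts that left 17288 genes for testing. EPHA7, EPHB1 and EPHB6 did not pass it and are described by their values alone. The libraries were made from mRNA of 5 BRAF V600E melanoma cell lines, once from the line sensitive to encorafenib, a BRAF inhibitor, and binimetinib, a MEK inhibitor, and once from the resistant line (E+BRes) grown out of it. The resistant lines were selected for 3 to 5 months under both drugs, from a starting dose of 1 nM up to 200 nM, and were held in a 200 nM mixture of them. By the labels, WM983A, WM278 and WM902B came from primary tumors and WM983B and WM1617 from metastases. WM983A and WM983B came from the same patient, as did WM278 and WM1617, so the 5 lines stand for 3 patients. Each line gave 1 library per state, so the 5 lines served as replicates of each state. The resistant cells differed from the sensitive ones both in their history of selection and in the drugs present, which cannot be told apart.

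Eph receptors sit in the plasma membrane and are bound by ephrins, ligands that are themselves fixed to the membrane of a neighboring cell. EphA receptors mostly bind the ephrin-A ligands, which are held by a lipid anchor, and EphB receptors mostly bind the transmembrane ephrin-B ligands. Binding activates the kinase, and the receptor and its adaptors act on the cytoskeleton and on integrins to set cell shape, adhesion, repulsion and migration. In the melanocyte lineage, which arises from the neural crest, Eph signals help to guide migrating precursor cells, and receptor messages are often altered in melanoma.

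Among the members, EPHB2 was higher in the resistant library of 5 of 5 lines, and EPHA3 was at least 5-fold lower in WM983A, WM983B and WM902B. EPHA2 was at least 2-fold higher in those same 3 lines and lower in WM278. EPHB3 was at least 2-fold lower in resistant WM983A, WM983B, WM278 and WM902B by CPM and nearly level in WM1617. EPHB4 was measured at a high level everywhere and was less than 2-fold apart between the states of every line. None of the members passed an adjusted p of 0.05 in edgeR's quasi-likelihood test, with or without cell line as a block.

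**Figure D1:**
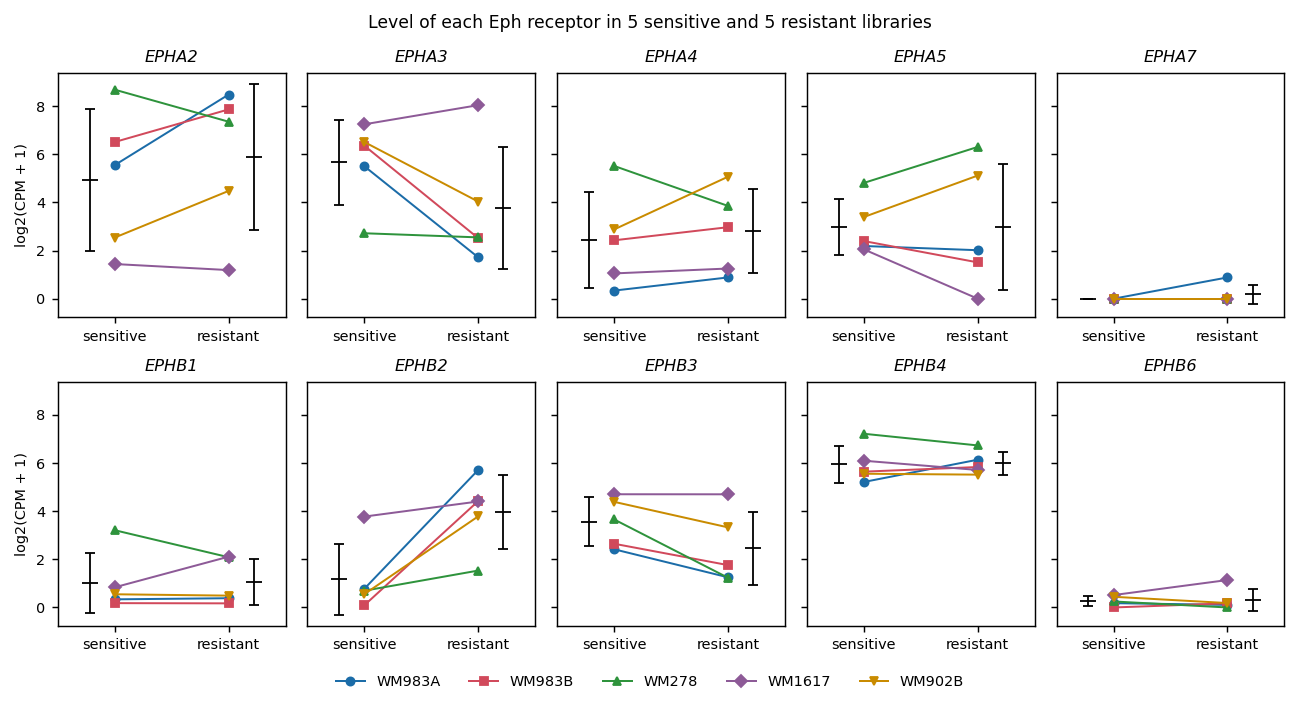
Level of each Eph receptor, as log2(CPM + 1) on the y axis, in the sensitive and the resistant library of each of 5 lines, joined by a line. Black marks give the mean and SD over the 5 libraries of a state. The resistant library lies higher for EPHB2 in all 5 lines and far lower for EPHA3 in 3, and EPHA7 and EPHB6 stay near 0.

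The libraries held 13693922 to 18033247 counts, with medians of 14876553 in the sensitive and 14977486 in the resistant state, so that 3 counts, taken as the smallest level that can be read, corresponded to 0.166 to 0.219 CPM. CPM, counts scaled to a library of 1000000, are given after scaling by the trimmed mean of M-values. The 8 melanocyte markers (MITF, SOX10, PMEL, MLANA, TYR, TYRP1, DCT and S100B) were all above 3 counts in every library except resistant WM983A, where 7 were. Their summed level was lower in resistant WM983A, at 89.8 against 3516 CPM, in resistant WM983B, at 140.5 against 2035 CPM, and in resistant WM902B, at 233 against 2905 CPM. It was nearly level in WM1617, at 4501 and 4429 CPM, and higher in resistant WM278, at 925 against 429 CPM. Markers of blood cells summed to at most 78.4 CPM, those of keratinocytes to at most 20.2 CPM and those of endothelium to at most 12.3 CPM. Resistant WM983A stood apart from its origin: across genes its log2 levels correlated with r = 0.827 with sensitive WM983A and with r = 0.845 with sensitive WM902B. The fold changes of EPHA2, EPHA3, EPHB2 and EPHB3 over the lines are therefore also given without WM983A.

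Across all genes, edgeR called no gene at a fold of at least 2 and an adjusted p of at most 0.05 (0% of 17288), and the smallest adjusted p was 0.630. At an unadjusted p of at most 0.05 irrespective of fold there were 1235 genes (7.14%). Of these, 610 lay higher in the resistant state by 2-fold or more (3.53%) and 153 lower by as much (0.885%). With cell line as a block the adjusted calls were again 0% (0 genes, smallest adjusted p 0.461), with 3.48% of genes higher and 2.05% lower at an unadjusted p. DESeq2 called 106 genes at the adjusted p, or 507 with the block, and limma-voom called 0. Against these shares, 1 of the 7 receptors tested was called higher at an unadjusted p (EPHB2) and none lower. With the block 1 was called higher (EPHB2) and 1 lower (EPHB3). In the sensitive libraries other than WM1617, EPHB2 had only 1 to 11 counts. It passed the filter on low counts through the resistant libraries, where it was high, so its call is given as a description. In a bulk library, fewer cells that carry a message and less of it in each cell cannot be told apart.

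The promoters of 4 receptors are shown in pairs, EPHA2 against EPHA3 and EPHB2 against EPHB3. The messages of each pair differed in opposite directions between the states of WM983A, WM983B and WM902B. Each run is the 250 bases before the RefSeq start site, 5′ to 3′ on the strand of the gene, in build GRCh38.p14. EPHA2 lies at chr1:16156070-16156319 on the minus strand, EPHA3 at chr3:89107371-89107620, EPHB2 at chr1:22710588-22710837 and EPHB3 at chr3:184561535-184561784, these 3 on the plus strand. Capitals mark matches, on either strand, to the motifs searched.
EPHA2: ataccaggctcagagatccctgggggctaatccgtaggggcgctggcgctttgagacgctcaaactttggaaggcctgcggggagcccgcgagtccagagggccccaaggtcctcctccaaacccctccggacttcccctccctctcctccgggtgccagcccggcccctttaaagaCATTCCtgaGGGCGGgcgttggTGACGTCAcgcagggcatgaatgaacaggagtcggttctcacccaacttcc
EPHA3: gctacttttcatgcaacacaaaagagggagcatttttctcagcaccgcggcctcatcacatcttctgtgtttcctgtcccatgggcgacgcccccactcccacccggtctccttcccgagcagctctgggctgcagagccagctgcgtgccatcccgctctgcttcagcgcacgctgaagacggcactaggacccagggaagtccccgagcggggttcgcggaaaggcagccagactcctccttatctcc
EPHB2: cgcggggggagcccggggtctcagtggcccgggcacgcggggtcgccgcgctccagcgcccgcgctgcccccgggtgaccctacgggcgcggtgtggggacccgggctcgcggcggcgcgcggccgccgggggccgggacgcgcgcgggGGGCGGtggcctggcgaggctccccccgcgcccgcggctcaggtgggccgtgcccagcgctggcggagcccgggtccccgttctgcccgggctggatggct
EPHB3: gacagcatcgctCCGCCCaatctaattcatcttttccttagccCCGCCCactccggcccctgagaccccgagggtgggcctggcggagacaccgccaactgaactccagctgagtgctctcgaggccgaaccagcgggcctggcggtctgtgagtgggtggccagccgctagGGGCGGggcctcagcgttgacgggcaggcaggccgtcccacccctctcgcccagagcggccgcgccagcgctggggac
The motifs were those of AP-1 (TGANTCA), CRE (TGACGTCA), TEAD (GGAATG), the M-box bound by MITF (TCATGTG), the GC box (GGGCGG) and ETS factors (CCGGAAGT), and no letters of one match overlapped another in these 4 runs. The EPHA2 run held a TEAD match 73 bases before the start, a GC box at 64 and a CRE at 51 bases before it. The EPHA3 run held no match to any of the 6 motifs. EPHB2 held 1 GC box and EPHB3 held 3. Among 35116 RefSeq promoters of this length, 42.6% held a GC box, 11.9% the TEAD letters, 6.57% AP-1, 3.42% ETS, 2.52% the M-box and 1.65% the CRE, so the GC box is common and the CRE rare among promoters. By base composition the EPHB2 run was the richest of the 4 in G and C, at 84.8%, against 70.0% in EPHB3, 63.2% in EPHA2 and 61.2% in EPHA3. All 10 members matched the RefSeq table, with 15 start sites in all. Beside EPHA2, the remaining matches to a motif other than the GC box were a single M-box, before the start of EPHB6.

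EPHA2, a receptor of ephrin-A1 that is abundant in epithelia and in many tumors, is encoded at chr1:16124337-16156069 (minus strand, 18 merged exons of 4141 bases, GENCODE 44 on GRCh38, as for all positions of genes). Its level in the sensitive libraries was 1.71 CPM in WM1617, 4.81 in WM902B, 45.8 in WM983A, 90.0 in WM983B and 410.2 in WM278. In the resistant libraries it was 1.28, 21.3, 355.8, 231.8 and 162.5 CPM in the same order. The lines thus differed among themselves by far more than the states did: WM1617 was low in both states, with 24 and 22 counts, and WM278 was high in both. The resistant level was 7.77-fold higher in WM983A (95% counting interval 7.17 to 8.43), 2.58-fold in WM983B (2.42 to 2.74) and 4.42-fold in WM902B (3.41 to 5.79). It was 2.53-fold lower in WM278 (2.41 to 2.64). Counting intervals cover the sampling of reads only, not the spread between cultures. Over the 5 lines the edgeR log2 fold change was 0.48 (SE 1.41, unadjusted p = 0.739, adjusted p = 0.968), and 1.02 with the block (SE 0.70, unadjusted p = 0.189, adjusted p = 0.583). Without WM983A the sign turned in the unblocked fit, to -0.28, and stayed positive with the block, at 0.48. The exact two-sided permutation test of log2(CPM + 1), 5 libraries against 5, gave p = 0.627.

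EPHA3, a receptor with a preference for ephrin-A5, is encoded at chr3:89107621-89482134 (plus strand, 17 merged exons of 6577 bases). Its sensitive levels were 150.7 CPM in WM1617, 90.0 in WM902B, 44.3 in WM983A, 80.9 in WM983B and 5.58 in WM278. Its resistant levels were 262.3, 15.4, 2.28, 4.71 and 4.85 CPM in that order. Resistant WM1617 had the highest level of all 10 libraries, while the other 4 resistant libraries were lower than their sensitive partners. The resistant level was 19.4-fold lower in WM983A (counting interval 13.3 to 28.7), 17.2-fold in WM983B (13.6 to 22.0) and 5.86-fold in WM902B (5.08 to 6.77). In WM278 the counts were 89 and 76, a 1.15-fold difference whose interval for the decrease spans 0.838 to 1.59, so a difference was not detectable at this depth. In WM1617 the resistant level was 1.74-fold higher (1.65 to 1.83). The edgeR log2 fold change was -0.36 (SE 1.27, unadjusted p = 0.783, adjusted p = 0.974) and the block gave -2.12 (SE 0.93, unadjusted p = 0.0588, adjusted p = 0.474). Without WM1617 the unblocked log2 fold change was -3.02, with an unadjusted p of 0.00817, and without WM983A it was -0.19, or -1.49 with the block. DESeq2 with the block gave -2.14 with an adjusted p of 0.0537, and the exact permutation test gave p = 0.206.

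EPHA2 and EPHA3 ran against each other. Their log2 levels correlated over the 10 libraries with r = -0.883, as a description, since libraries of a line share their origin and are not independent. In WM983A, WM983B and WM902B the resistant library held more EPHA2 and less EPHA3. In WM1617 the signs were opposite too, but EPHA2 rested on 24 and 22 counts, with an interval of the ratio of 0.393 to 1.37. In WM278 EPHA2 was lower when resistant, and a difference of EPHA3 was not detectable. The plot of receptor level against melanocyte markers shows that EPHA3 followed the summed markers (r = 0.885) and EPHA2 ran against them (r = -0.73). EPHB3 followed them less closely than EPHA3 (r = 0.624). For EPHB2, EPHA4, EPHB4 and EPHA5 r was -0.47, -0.406, -0.296 and -0.253. No share of all genes with such an r is given, so whether the receptors stand out was not tested. The 3 lines in which resistant EPHA3 was at least 5-fold lower were those in which the summed markers were lower as well, and in WM1617 and WM278 neither EPHA3 nor the markers were lower by 2-fold or more. The part of the change in melanocyte markers in the change of EPHA3 was not tested.

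**Figure D2:**
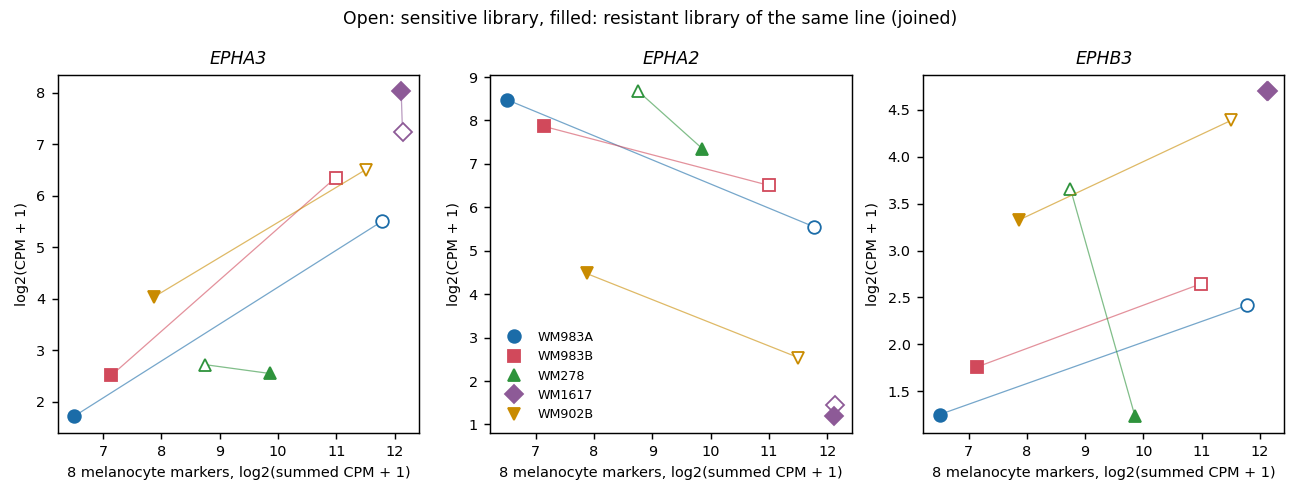
Level of EPHA3, EPHA2 and EPHB3 (y axes, log2(CPM + 1), on separate scales) against the summed level of 8 melanocyte markers (x axis, log2(summed CPM + 1)) in 10 libraries. Open symbols are sensitive and filled symbols resistant libraries, joined within a line. WM983A, WM983B and WM902B move to the left, to lower markers, with lower EPHA3 and higher EPHA2.

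EPHA4, which binds ephrins of both classes and is known for its part in axon guidance, is encoded at chr2:221418027-221574202 (minus strand, 22 merged exons). It was measured at 1.07 CPM in sensitive WM1617, 6.35 in WM902B, 0.263 in WM983A, 4.37 in WM983B and 44.7 in WM278. The resistant levels were 1.39, 32.5, 0.845, 6.84 and 13.5 CPM in that order. The resistant level was 5.13-fold higher in WM902B (4.10 to 6.45), 1.56-fold higher in WM983B (1.14 to 2.16) and 3.32-fold lower in WM278 (2.85 to 3.89). In WM983A, at 4 and 11 counts, the interval of the ratio (0.951 to 13.8) did not leave out equality. The edgeR log2 fold change was -0.05 (SE 1.26, adjusted p = 0.997) without and 0.63 (SE 0.62, adjusted p = 0.697) with the block, so that its sign depended on the fit.

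EPHA5, a receptor best known from the nervous system, is encoded at chr4:65319563-65670495 (minus strand, 18 merged exons). Its sensitive levels were 3.14 CPM in WM1617, 9.51 in WM902B, 3.56 in WM983A, 4.26 in WM983B and 27.1 in WM278, and its resistant levels 0, 33.7, 3.04, 1.85 and 78.0 CPM. It was 2.88-fold higher in WM278 (2.58 to 3.23) and 3.54-fold higher in WM902B (2.94 to 4.31), and 2.31-fold lower in WM983B (1.48 to 3.75). In WM1617 it went from 44 counts to 0, at least 18.3-fold lower when set against 3 counts in the resistant library. The edgeR log2 fold change was 1.29 (SE 1.36, adjusted p = 0.879) without and -0.22 (SE 1.06, adjusted p = 0.947) with the block. EPHA5-AS1, an antisense RNA that shares 535 exon bases with EPHA5, was at 1 to 92 counts, and whether the counting used strand is not given in the sources used here, so reads of the pair may have been exchanged.

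EPHB2, a receptor for ephrin-B ligands that helps to sort cells into compartments in the gut and brain, is encoded at chr1:22710839-22921500 (plus strand, 18 merged exons of 12516 bases). In the sensitive libraries it was at 12.7 CPM in WM1617 (178 counts), 0.468 in WM902B (7 counts), 0.715 in WM983A (11 counts), 0.0663 in WM983B (1 count) and 0.620 in WM278 (10 counts). In the resistant libraries it was at 20.2, 12.8, 51.6, 20.5 and 1.89 CPM, from 352, 189, 672, 326 and 30 counts. Of the resistant libraries, 4 lay above all 5 sensitive ones, narrowly so in WM902B, and the groups overlapped through resistant WM278 and sensitive WM1617. EPHB2 was 72.1-fold higher in WM983A (counting interval 39.6 to 143.4) and 27.4-fold higher in WM902B (13.0 to 69.0). In WM983B the ratio was 309 with an interval from 55.0 to 12230, since it rests on 1 count in the sensitive library. It was 3.06-fold higher in WM278 (1.45 to 7.0) and 1.59-fold in WM1617 (1.32 to 1.91), the line that already held EPHB2 when sensitive.

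EPHB2 passed the filter on low counts through its resistant libraries, so its p-values are a description. Across lines, EPHB2 had an edgeR log2 fold change of 2.87 (SE 1.26, unadjusted p = 0.0446, adjusted p = 0.691). With cell line as a block it was 4.05 (SE 1.24, unadjusted p = 0.0141, adjusted p = 0.461). The exact two-sided permutation test gave p = 0.0159, where 0.00794 is the smallest that 5 against 5 libraries allow. This test ignores the pairing of libraries by line. With the pairing kept, flipping the signs of the 5 within-line ratios could give no p under 0.0625. DESeq2 with the block gave 4.21 and an adjusted p of 2.8e-04, and without it an adjusted p of 0.286. The unblocked call ended when any of 4 lines was left out: the log2 fold change was 2.00 (unadjusted p = 0.185) without WM983A, 2.54 (unadjusted p = 0.0883) without WM983B, 2.91 (unadjusted p = 0.0554) without WM278 and 2.73 (unadjusted p = 0.0963) without WM902B. Without WM1617 it was 5.49 (unadjusted p = 0.000785), and with the block the unadjusted p stayed at or under 0.0474 whichever line was left out. A gene with a higher level in the resistant library of all 5 lines was not unusual, as 5.74% of the genes tested were. On the log2(CPM + 1) scale EPHB2 was at least 2-fold higher in 3 lines, as were 3.75% of the genes tested in 3 or more lines. No member was so in 4 or more lines, where the share of genes was 0.816%.

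EPHB3, an EphB receptor with roles in the intestinal epithelium and in palate closure, is encoded at chr3:184561785-184582408 (plus strand, 16 merged exons of 4530 bases). Its sensitive levels were 25.0 CPM in WM1617, 19.9 in WM902B, 4.34 in WM983A, 5.26 in WM983B and 11.6 in WM278. Its resistant levels were 25.0, 9.04, 1.38, 2.39 and 1.35 CPM. The level was thus lower in 4 lines and the same in WM1617, where 351 and 436 counts gave a ratio of 1.00 with an interval of 0.864 to 1.15. The resistant level was lower by 3.14-fold in WM983A (1.84 to 5.62), 2.21-fold in WM983B (1.47 to 3.32), 8.58-fold in WM278 (5.50 to 14.3) and 2.21-fold in WM902B (1.80 to 2.73). In WM278, EPHB3 was lower while the melanocyte markers were higher. The edgeR log2 fold change was -0.76 (SE 0.87, unadjusted p = 0.402, adjusted p = 0.892), and -1.37 with the block (SE 0.45, unadjusted p = 0.0203, adjusted p = 0.461). Without WM983A the values were -0.71 and, with the block, -1.29. With the block the unadjusted p stayed at or under 0.0485 whichever line was left out, and without it no such fit was under 0.05. Of all genes tested, 24.5% were lower in at least 4 lines, as EPHA3 and EPHB3 were.

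**Figure D3:**
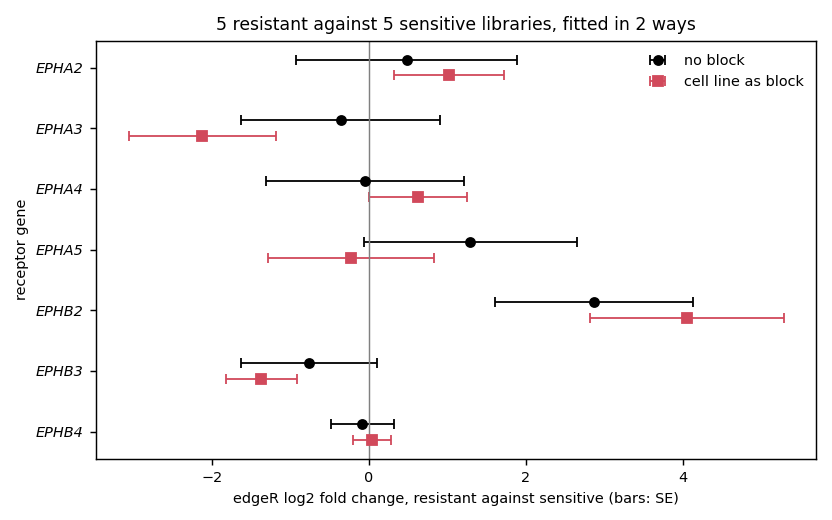
edgeR log2 fold change (x axis) of the 7 Eph receptors that passed the filter (y axis), resistant against sensitive, with SE as bars. Black circles are fits of 5 against 5 libraries without a block and red squares fits with cell line as a block. EPHB2 lies to the right in both fits, EPHB3 and EPHA3 to the left, and EPHB4 near 0.

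EPHB4, the receptor of ephrin-B2 that marks veins, is encoded at chr7:100802565-100827523 (minus strand, 17 merged exons). It was at 36.1, 48.9, 147.6, 67.4 and 46.0 CPM in sensitive WM983A, WM983B, WM278, WM1617 and WM902B and at 69.4, 56.0, 105.2, 51.4 and 44.8 CPM in the resistant libraries. WM278 had the highest level in both states and the remaining libraries lay between 36.1 and 69.4 CPM. The largest difference was a 1.92-fold higher level in resistant WM983A (1.73 to 2.15), and the resistant level was 1.40-fold lower in WM278 (1.32 to 1.5) and 1.31-fold lower in WM1617 (1.20 to 1.44). The edgeR log2 fold change was -0.08 (SE 0.40, adjusted p = 0.982) and 0.04 with the block (SE 0.24, adjusted p = 0.959). Its SD of log2(CPM + 1), 0.78 over the sensitive and 0.47 over the resistant libraries, was the smallest of the 7 receptors tested.

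The other 3 members were scarce. EPHA7 was listed at 0 in 9 libraries and had 11 counts in resistant WM983A, at least 4.28-fold more than 3 counts in the sensitive library. EPHB1, a receptor with roles in axon crossing, had 2 to 131 counts, and was highest in WM278, where the resistant level was 2.54-fold lower, at 51 against 131 counts (1.82 to 3.56). It was 4.22-fold higher in WM1617, at 58 against 11 counts (2.20 to 8.94). EPHB6, which lacks kinase activity, had 0 to 21 counts, with its highest value in resistant WM1617, where it had 6 counts when sensitive. Of the 4 Eph receptor genes outside the list, EPHA8 never exceeded 3 counts, EPHA6 22 and EPHA1 12 counts. EPHA10, which like EPHB6 lacks kinase activity, had 46 counts in resistant WM983A, 13.4-fold more than the 4 counts of the sensitive library (4.90 to 51.4), and at most 5 elsewhere.

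Line by line, each taken as 1 pair of libraries with no test, the members differed as follows on the log2(CPM + 1) scale at a fold of at least 2. The shares beside them are of genes that passed the filter on low counts, which EPHB1 did not. In WM983A, EPHA2 and EPHB2 were higher and EPHA3 and EPHB3 lower, where 13.7% of the genes tested were higher and 15.7% lower by that much. In WM983B, EPHA2 and EPHB2 were higher and EPHA3 lower, against 11.9% and 8.47% of genes. In WM278, EPHA5 was higher and EPHA2, EPHA4, EPHB1 and EPHB3 lower, against 7.57% and 4.96%. In WM1617, EPHB1 was higher and EPHA5 lower, against 1.08% and 1.54%, the fewest of any line among members and among genes as a whole. In WM902B, EPHA2, EPHA4, EPHA5 and EPHB2 were higher and EPHA3 and EPHB3 lower, against 11.2% and 8.94%. The 2 lines of a patient did not share a pattern in each case: resistant WM983A and WM983B both had higher EPHA2 and EPHB2 and lower EPHA3, while EPHA5 was higher in WM278 and lower in WM1617.

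**Figure D4:**
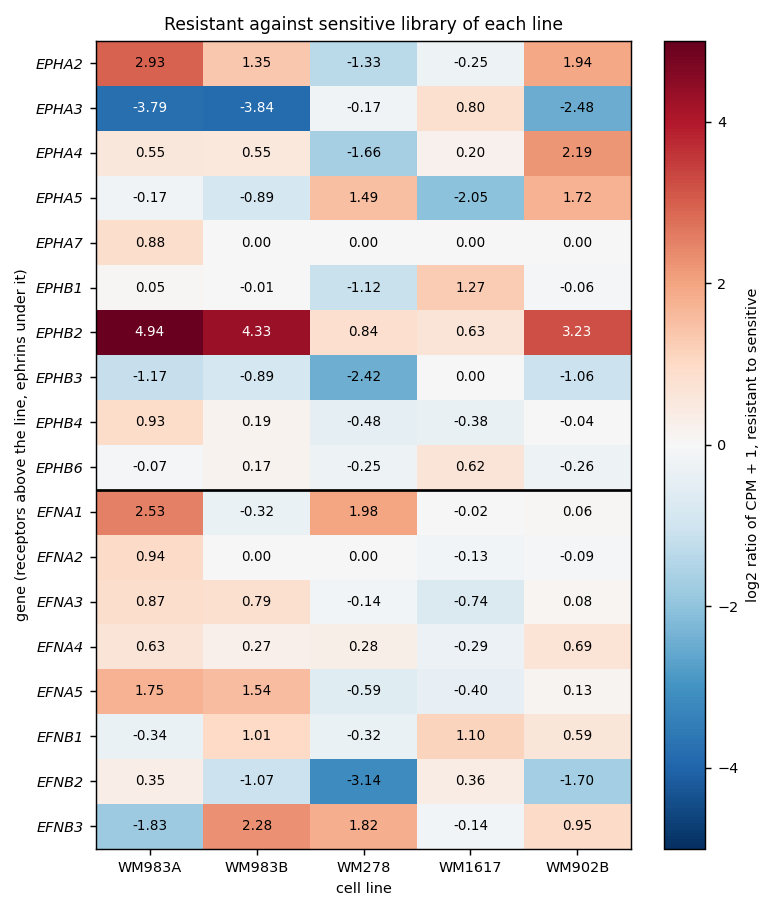
Log2 ratio of CPM + 1, resistant to sensitive library, for 10 Eph receptors and 8 ephrins (rows) in 5 lines (columns), red for higher and blue for lower in the resistant library. The EPHB2 row is positive in all lines (0.63 to 4.94), and the EPHA3 row ranges from -3.84 to 0.80.

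Between genes, levels were compared as CPM per kilobase of exon. Over the 14 Eph receptor genes the summed level was 41.1 in sensitive and 56.4 in resistant WM1617, 28.4 and 25.3 in WM902B, 25.0 and 102.7 in WM983A, 43.95 and 68.8 in WM983B, and 135.7 and 67.2 in WM278. EPHA2 was the leading message in sensitive WM983A (44.2% of the sum), WM983B (49.5%) and WM278 (73.0%), and EPHA3 in sensitive WM1617 (55.8%) and WM902B (48.2%). In the resistant libraries EPHA2 took 83.7% in WM983A, 81.4% in WM983B and 58.4% in WM278, and EPHA3 70.8% in WM1617. The lead changed in 1 line: in resistant WM902B it passed from EPHA3 to EPHB4, at 27.5%, followed by EPHA2 at 20.3% and EPHA4 at 17.0%. The order behind EPHB4 depended on the length correction. Without it, EPHB4 (26.3%) was followed there by EPHA5 (19.8%) and EPHA4 (19.1%), with EPHA2 at 12.5%. EPHB4 was among the leading 3 receptors in every library. Per length EPHB2 remained a minor message even where its fold was largest, with 4.01% of the sum in resistant WM983A and 2.38% in resistant WM983B. Without length correction these shares were 10.5% and 6.29%, since the exons of EPHB2 are long.

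**Figure D5:**
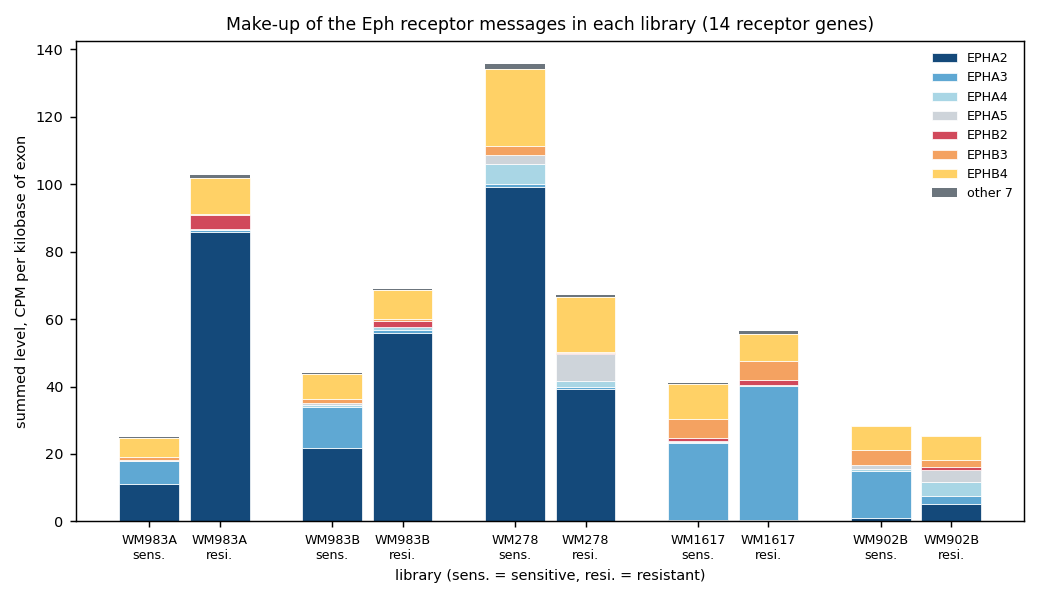
Summed level of 14 Eph receptor genes in each library, in CPM per kilobase of exon (y axis), split by receptor in stacked bars. EPHA2 makes up most of the bar in resistant WM983A and WM983B and in both WM278 libraries, EPHA3 in WM1617, and resistant WM902B is divided among several receptors.

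The ligands differed without a common direction. None of the 7 ephrins tested (4 ephrin-A, 3 ephrin-B) reached an unadjusted p of 0.05 in edgeR with or without the block, and their median log2 fold changes were 0.43 for ephrin-A and 0.40 for ephrin-B ligands, beside 0.03 for all genes tested. EFNA1, a ligand of EPHA2, was 9.03-fold higher in resistant WM983A (5.87 to 15.0), at 13.3 against 1.47 CPM, and 4.29-fold higher in WM278 (3.54 to 5.20), at 36.2 against 8.44 CPM. In WM983B, WM1617 and WM902B its levels differed by less than 1.3-fold. EFNA5, a ligand of EPHA3, was 3.54-fold higher in WM983A (3.03 to 4.15) and 3.05-fold higher in WM983B (2.60 to 3.60). These lines, from the same patient, had the largest decreases of EPHA3. In WM902B, where EPHA3 was 5.86-fold lower, EFNA5 was at 24.01 against 21.91 CPM, with an interval of the ratio of 0.941 to 1.278. EFNA5 was 1.528-fold lower in WM278 (1.32 to 1.772) and 1.335-fold lower in WM1617 (1.164 to 1.527). EFNB2, the ligand of EPHB4, was 9.25-fold lower in resistant WM278 (8.15 to 10.5), at 16.9 against 156.4 CPM, 2.35-fold lower in WM983B (1.77 to 3.16) and 11.6-fold lower in WM902B (4.24 to 44.3), at 4 against 47 counts. Its edgeR log2 fold change was -1.37 (adjusted p = 0.847), and DESeq2 with the block gave -1.35, with an unadjusted p of 0.0250 and an adjusted p of 0.251. EFNB3 was 5.83-fold higher in WM983B (4.43 to 7.79), 4.46-fold higher in WM278 (3.2 to 6.34), 2.06-fold higher in WM902B (1.64 to 2.61) and 7.28-fold lower in WM983A (3.62 to 16.4). EFNB1 was 2.15-fold higher in WM983B (1.72 to 2.71) and 2.51-fold higher in WM1617 (1.77 to 3.59), and EFNA4 stayed within 1.8-fold in every line. EFNA3 and EFNA4 share 853 and 189 exon bases with the readthrough gene EFNA4-EFNA3, so the counts of both are uncertain. EFNA3 had 11 to 123 counts, and EFNA2 exceeded 3 counts in 3 libraries.

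Downstream of the receptors, 24 of 25 adaptors and effectors were tested, and 2 reached an unadjusted p of 0.05 in edgeR, near the 7.14% of all genes, and none an adjusted one. ANKS1A, an adaptor that binds Eph receptors and their degradation machinery, was at 29.0 to 156.4 CPM in the sensitive libraries (median 111.2) and at 26.1 to 48.1 (median 32.2) in the resistant ones, lower in 4 lines. Its log2 fold change was -1.39 (SE 0.46, unadjusted p = 0.0122, adjusted p = 0.630), and with the block -1.13 (unadjusted p = 0.0573). NCK1, an SH2 and SH3 adaptor, was higher in 4 lines, at a median of 34.6 against 23.4 CPM (log2 fold change 0.79, SE 0.33, unadjusted p = 0.0368, adjusted p = 0.685). SRC, a kinase recruited to active Eph receptors and named after its values were seen, was higher in 5 lines. Its log2 ratios were 0.31 to 1.61. SRC was at 0.252 to 110.8 CPM in the sensitive libraries (median 50.79) and at 0.859 to 252.3 (median 82.35) in the resistant ones. Its lowest sensitive level was close to the smallest that can be read. Of all genes tested, 5.74% were higher in the resistant library of all 5 lines. SRC reached an unadjusted p of 0.00743 with the block (adjusted p = 0.461) and 0.412 without it. The most abundant of the list was INPPL1, a lipid phosphatase that binds EPHA2, at medians of 170.7 and 201.2 CPM with a log2 fold change of 0.18 (SE 0.61). The median log2 fold change of the list was -0.14, beside 0.03 for all genes tested.

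Of 6 proteases that cut Eph receptors or ephrins, all were tested and none reached an unadjusted p of 0.05, with a median log2 fold change of -0.10. The most abundant, MMP14, a membrane metalloproteinase that cleaves EPHA2, was at 332.4 to 711.4 CPM in the sensitive libraries. Its log2 ratios were 0.18 in WM1617, 0.40 in WM902B, -4.59 in WM983A, -0.05 in WM983B and -1.37 in WM278.

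Whether the change with resistance differed between lines from primary tumors and from metastases was tested with the interaction of tumor stage and state in edgeR, which gave an unadjusted p under 0.05 for 1.85% of genes and for none of the 7 receptors. EPHA5 came nearest: its mean log2 ratio was 1.01 over 3 lines from primary tumors and -1.47 over 2 from metastases, with an interaction of -4.10 (SE 1.68, unadjusted p = 0.0524, adjusted p = 1.00). The exact permutation of 3 against 2 lines cannot go under 0.1, and gave 0.2 for EPHA5. For EPHB2 the means were 3.00 and 2.48, with an interaction of -0.76 and an SE of 2.96 (unadjusted p = 0.806), so a large difference in either direction would not have been detected.

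The genes whose log2(CPM + 1) followed each receptor most closely over the 10 libraries are given as a description of 10 libraries from 5 lines. For EPHA2 the first with a gene name was KRT80, a keratin (r = 0.978), behind RP11-57H14.4 (r = 0.981) and ahead of RP11-479G22.8 (r = 0.977). For EPHA3 they were AC009495.4 (r = 0.969), AC009495.3 and STX3, a syntaxin (both r = 0.957). For EPHA4 they were LAMC1, a laminin chain (r = 0.985), ACTB (r = 0.936) and POTEF (r = 0.930), which is near-identical to actin in part and so may share its reads. For EPHA5 they were CC2D2A (r = 0.959), the antisense RNA EPHA5-AS1 (r = 0.953) and LINC01116 (r = 0.925). EPHB2 was followed by HCN2, an ion channel (r = 0.953), RP11-326A19.5 (r = 0.952) and PNMA2 (r = 0.929), and EPHB3 by DDI2 (r = 0.975), SEPTIN11, held as a date in the files (r = 0.943), and RAB17 (r = 0.939). EPHB4 was followed by PTPN12, a tyrosine phosphatase (r = 0.956), CTD-2292P10.4 (r = 0.954) and LY6K (r = 0.944). Between members themselves, EPHA3 and EPHB3 ran together (r = 0.78), as did EPHA4 and EPHA5 (r = 0.76), while EPHA2 and EPHB3 ran apart (r = -0.815). EPHB2 and EPHB3 differed in opposite directions within 5 of 5 lines, if the near-zero change of EPHB3 in WM1617 is counted, yet their levels over the 10 libraries were nearly unrelated (r = -0.101).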

How the data were processed

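mRNA was selected with oligo-dT and sequenced from 1 end over 75 cycles. Alignment by the authors was to GRCh38, with HISAT2, and gene quantification was done in StrandNGS. Tool versions, the gene annotation, the use of strand and the handling of reads shared between genes are not given in the sources used here. The authors deposited, per library and Ensembl gene, expected counts (23.2 to 24.7% per library of those above 0 were exactly whole, with no tolerance) and a normalized value on a log2 scale, the ratio to the sensitive library of the same line, which served here only to recover 455 expected counts of sensitive WM983B that the deposited table held as dates. All 455 recovered values fitted the visible digits, and none belonged to an Eph receptor or ephrin.

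Expected counts were rounded and fitted in R 4.3.3 with edgeR 4.0.16 (filterByExpr by state, trimmed mean of M-values, glmQLFit and glmQLFTest, two-sided), 5 resistant against 5 sensitive libraries, with Benjamini-Hochberg adjustment over 17288 genes. Calls required a fold of at least 2 with an adjusted or, separately, an unadjusted p of at most 0.05. DESeq2 1.42.0 and limma 3.58.1 were alternatives. Cell line as a block was an alternative too. Its pairing comes from the design, each resistant line being derived from the sensitive line of its name. Deviations of paired libraries correlated with r = -0.082 to 0.671 (mean 0.422, against -0.104 between lines, and over 0.1 in 4 of 5 lines). Exact permutation tests used log2(CPM + 1), and those of 5 libraries against 5 ignored the pairing by line. Folds within a line are plain ratios of CPM, and log2 ratios and the counts of genes past 2-fold in a line used 1 CPM added. Folds against 0 counts were bounded with 3 counts in that library, and 95% counting intervals are exact binomial (Clopper-Pearson) intervals of the 2 counts. Since each line and state was 1 culture, p-values measure the spread between lines or, with the block, the spread of the within-line change. The tests treat the 5 lines as independent, though they stand for 3 patients. Fits were also run on simulated counts with the same spread set for every gene and independent lines, unlike these data. Their outcome is not given here, and they do not show how well the fits suit these data. Exon lengths and positions are from GENCODE 44, promoters from RefSeq. Other steps ran in Python 3.11.15 (scipy 1.17.1, pandas 2.3.3, numpy 2.4.6) and figures in matplotlib 3.10.9.

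The members and lists were chosen with earlier results of these data known. Named genes were the members, the other Eph receptor genes, the ephrins, genes of the adaptor and protease lists at an unadjusted p of at most 0.05 or with the highest mean level, and the 3 genes most correlated with each tested member. Protein sequences were not used here. DESeq2 with the block, fits without the genes held as dates and fits without 1 line with the block were added after seeing the data. One further gene list is not reported here.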

Additional observations from a re-analysis of the deposited data

Results flagged for a closer look

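Chance alone sets apart 1 library in about 1 in 20 groups of 5, a share that may not hold for values near 0 counts. No share over all genes is given here, so whether Eph receptors stand out was not tested. In 41 groups of 5 libraries (a gene in a state), 8 held a library set far apart from the other 4. Of these 8 groups, 4 were of the 10 Eph receptors. On the log2(CPM + 1) scale, the value given is the gap between the library set apart and its nearest neighbor, over the range of the group. It was 1.00 for EPHA7 in resistant WM983A (0.845 CPM, all others at 0), 0.783 for EPHB1 in sensitive WM278 (8.25 CPM), 0.814 for EPHB2 in sensitive WM1617 (12.7 CPM) and 0.839 for EPHB6 in resistant WM1617 (1.20 CPM). Outside the members it was 0.715 for EPHA1 in sensitive WM983A (0.321 CPM), 0.960 for EPHA10 in resistant WM983A (3.54 CPM), 0.927 for EFNA2 in sensitive WM1617 (1.43 CPM) and 0.776 for EFNB3 in resistant WM983A (0.691 CPM, under the other resistant libraries). The sensitive WM1617 value of EPHB2 bears on its fold change, which was 5.49 on the log2 scale without that line.

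EFNA1 was higher in the resistant library of all 3 lines from primary tumors and lower in both from metastases, with a difference of the mean log2 ratios of -1.695 (metastatic minus primary). The interaction in edgeR gave an unadjusted p of 0.0948 and an adjusted p of 1.00, and in WM902B and WM1617 the change was near 0 (0.06 and -0.02).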

How the results depend on the processing

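The number of Eph receptors called at an unadjusted p was 1 in the reported fit, 2 with cell line as a replicate block, 0 with at least 10 counts required in every library (where EPHB2 is removed), 3 with DESeq2 and the block, and 0 to 4 when 1 line was left out. At the adjusted p it was 0, and 1 (EPHB2) with DESeq2 and the block. Over all genes, adjusted calls were 0 in the reported fit, 106 with DESeq2 and 507 with DESeq2 and the block. Unadjusted calls were 763 in the reported fit, 956 with the block, 2258 without a filter on low counts and 1493 with DESeq2 and the block. When 1 line was left out they were 419 to 1693. The 4 receptors were called with the block and without WM278, where 971 genes were called. The 1693 genes were called with the block and without WM1617, where 3 receptors were. No share of the genes tested is given for fits without 1 line. With the block the log2 fold changes of EPHA4 (0.63), EPHA5 (-0.22), EPHB4 (0.04) and EFNA3 (0.28) turned sign, as they did with limma-voom (0.62, -1.06, 0.043 and 0.31) and with DESeq2 and the block (0.65, -0.33, 0.038 and 0.28). None of these was called in any of those fits. With 1 line left out, with or without the block, log2 fold changes ran from -0.28 to 2.11 for EPHA2, from -3.02 to -0.02 for EPHA3, from -1.15 to 1.79 for EPHA4, from -0.87 to 1.41 for EPHA5, from 2.00 to 5.49 for EPHB2, from -1.73 to -0.53 for EPHB3 from -0.27 to 0.18 for EPHB4, from -0.24 to 0.66 for EFNA3 and from -2.15 to 0.12 for EFNB2. The causes were not tested. With 0.1 CPM in place of 1 CPM added, 4 members were at least 2-fold higher in WM983A, 3 in WM983B, 2 in WM278 and 2 in WM1617. By that much, 3 were lower in WM983B and 5 in WM278. With 5 CPM added, 1 was lower in WM983A, 3 in WM278 and 1 in WM902B, and in WM1617 0 were higher and 0 lower. No share over all genes is given for 0.1 or 5 CPM added, so whether the members stand out there was not tested. Without length correction the share of EPHA2 was 33.5% and 72.5% in WM983A, 38.3% and 71.3% in WM983B and 62.4% and 43.7% in WM278 (sensitive and resistant), and that of EPHA3 50.5% in sensitive WM902B. DESeq2 size factors, no filter on low counts, DESeq2 without the block and leaving out the genes held as dates changed no direction or call of a receptor. Depth limits EPHA7, EPHB1 and EPHB6, and EPHB2 in 4 sensitive libraries.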
